A study of Pseudozyma hubeiensis with 12 samples.

Results

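The loci described here encode the factors and enzymes that run protein synthesis in the basidiomycete yeast Pseudozyma hubeiensis: translation initiation, elongation and release factors, and the aminoacyl-tRNA synthetases. They were taken by the deposited product names, as every locus whose product reads translation initiation factor, elongation factor, peptide chain release factor, tRNA ligase or tRNA synthetase and holds no mention of transcription. That rule found 86 loci of 6689 in the annotation, and 72 of them passed the filter on low counts that left 5805 genes to test. By product they were 33 initiation factors, 6 cytosolic elongation factors, 2 subunits of the cytosolic release factor, 5 mitochondrial factors, 37 tRNA synthetases and 3 others. Of those 3, PHBOTO_000678 is a chromatin elongation factor of the SPT6 type and trl1 is the ligase that joins the cut ends of tRNA in splicing, so neither acts in translation itself. The other one, hbs1, is related to elongation factor 1-alpha and is known in Saccharomyces cerevisiae for rescuing stalled ribosomes.

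Protein synthesis begins when initiation factors bring the initiator tRNA and the small ribosomal subunit to a messenger RNA. Elongation factors then deliver charged tRNAs and move the ribosome along, and release factors free the finished chain, while the synthetases attach each amino acid to its own tRNA. In yeasts the genes of this apparatus are known to be expressed strongly in fast growth and weakly when nutrients run out, and eIF2 with its exchange factor eIF2B is known as the step through which shortage of amino acids reduces initiation.

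Strain BOT-O was grown in nitrogen-limited yeast medium, which held 80 g of carbon per g of nitrogen at the start, with either glucose or xylose as the sugar. Poly-A RNA was sequenced at time point 1, in exponential growth, and at time point 2, in nitrogen starvation, in 3 biological replicates named A, B and C for each of the 4 combinations. All 12 libraries came from the same strain and the same kind of medium, and phase and sampling time coincide, so effects of starvation and of culture age cannot be told apart. The growth protocol text names glucose for every sample, and the sugar of each library was therefore taken from its source name. Total counts per library ran from 15130232 to 32374467. Levels are given as counts-per-million (CPM) values on library sizes scaled by the trimmed mean of M-values, and they are shares of the counted RNA: fewer cells expressing a gene and less of its RNA per cell cannot be told apart, and RNA per cell was not measured. Gene lengths were not used, so CPM values are compared between libraries for a gene and not between genes.

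Of the 14 loci that were not tested, 12 were listed at 0 in all 12 libraries and 2 had a handful of counts, 9 for ala1 and 6 for ala1_3, both alanine-tRNA ligases labelled mitochondrial. The share listed at 0 was 14.0% of the 86 loci, against 9.19% of all 6689 loci and 1 of 76 cytosolic ribosomal protein genes. The 12 were the cytosolic ligases for aspartate (dps1), lysine (krs1), glutamate (gus1) and proline (yhr020w), an isoleucyl-tRNA synthetase (PHBOTO_002220), the ligases labelled mitochondrial for tryptophan (msw1) and histidine (hts1), mitochondrial elongation factor G (mef1), eIF3 subunit G (tif35), eIF6 (tif6), an unnumbered initiation factor (PHBOTO_001001) and release factor subunit 1 (sup45). Several of these, such as the release factor that reads stop codons and the lysine ligase, are products that every growing cell uses, so a listing at 0 is given here only as a listing and not as a level. Whether reads of these loci were assigned elsewhere or dropped in counting was not tested.

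In nitrogen starvation nearly the whole apparatus was lower than in exponential growth, on both sugars. On glucose 62 of the 72 tested loci fell and 6 rose, with 4 not passing the test, and on xylose 59 fell and 3 rose, with 10 not passing. Calls here and elsewhere rest on edgeR's quasi-likelihood test and a Benjamini-Hochberg adjusted p under 0.05 over the 5805 genes tested. Starvation moved much of the transcriptome: 81.2% of all tested genes were called on glucose, 40.1% higher and 41.1% lower, and 81.3% on xylose, 40.6% higher and 40.6% lower. Beside those shares, 86.1% of the 72 loci fell on glucose and 81.9% on xylose. The median log2 change was -1.37 on glucose and -1.40 on xylose, beside medians of -0.022 and 0.0012 over all genes. A change of at least 2-fold in either direction was called for 51 loci on glucose and 48 on xylose, beside 44.6% and 43.7% of all genes, and a fall of that size for 49 loci on glucose and 46 on xylose, where 22.1% and 20.2% of all genes met that rule. Without the chromatin factor and trl1, a choice made after their values were seen, 61 of 70 fell on glucose and 57 of 70 on xylose.

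The 3 starved and 3 exponential libraries did not overlap for 67 of the 72 loci on glucose, 61 of them lower in starvation, and for 64 on xylose, 60 of them lower. Over all genes tested 81.5% did not overlap on glucose, 41.6% being lower, and 85% on xylose, 42.6% being lower. Called on both sugars, 57 loci fell on both and 3 rose on both, beside 34.6% and 34.2% of all genes, and none was called in opposite directions. Of the other loci 5 fell and 3 rose on glucose without a call on xylose, 2 fell on xylose without a call on glucose, and 2 were called on neither. The 3 that rose on both were dps1_2, PHBOTO_006346 and tef1_2, each of which shares its product name with another locus. Across the 72 loci the starvation changes on the 2 sugars had a Pearson r of 0.963 and a Spearman rho of 0.956, given as a description over loci that share libraries, and over all 5805 genes r was 0.881.

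**Figure D1:**
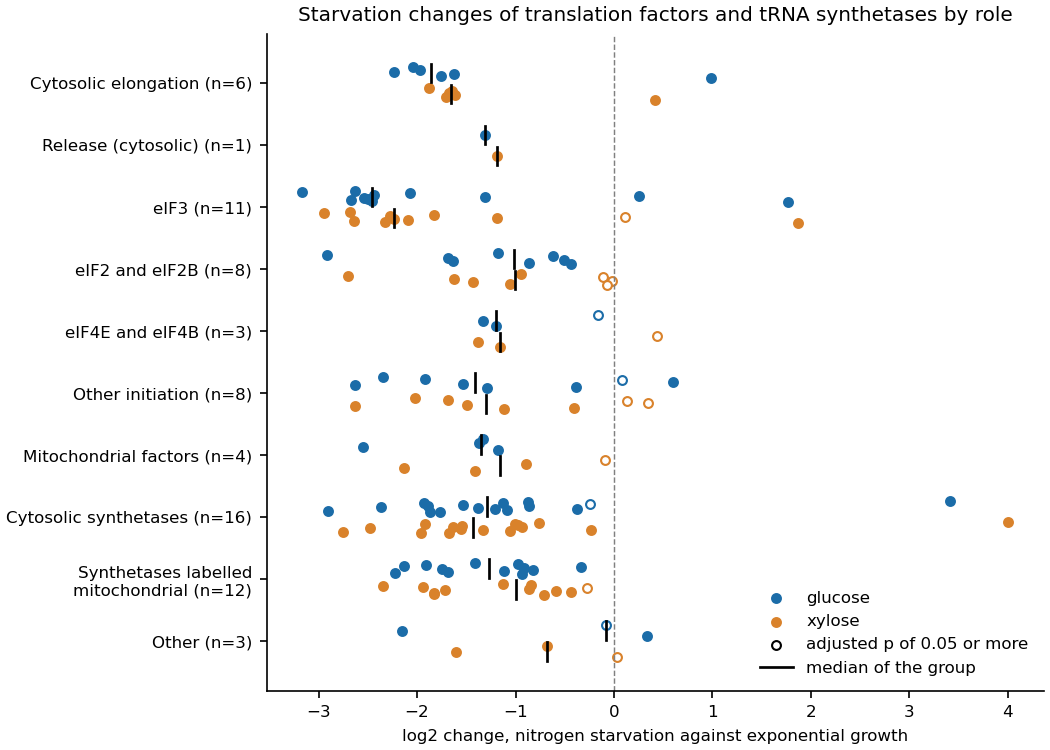
Log2 change in CPM between nitrogen starvation and exponential growth (x axis) for each of the 72 tested loci, arranged by role (y axis), with glucose in blue and xylose in orange; each point is a locus, open points did not pass an adjusted p of 0.05, and black bars are group medians. Most points lie left of 0 in every translation role, eIF3 has the lowest medians at -2.45 and -2.23, and dps1_2 stands alone at 3.41 and 4.01.

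The 6 cytosolic elongation factors bring charged tRNAs to the ribosome and move it along the message, and 5 of the 6 fell on both sugars while tef1_2 rose. tef1 encodes elongation factor 1-alpha, the GTPase that carries charged tRNAs to the ribosome. tef1 read 18396, 17834 and 18603 CPM in the exponential glucose libraries A, B and C, and 3776, 3947 and 3936 CPM in the starved glucose libraries. On xylose tef1 read 15571, 16006 and 15395 CPM in exponential growth and 5219, 5049 and 4432 CPM in starvation. All starved libraries of tef1 were below all exponential libraries, and on the log2 scale it fell by 2.23 (SE 0.090, adjusted p = 1.2e-12) on glucose and fell by 1.68 (SE 0.088, adjusted p = 3.44e-11) on xylose. Its share of the summed CPM of all 86 loci was 37.2 to 38.4% in exponential glucose cultures and 25.2 to 26.1% in starved ones, and on xylose it went from between 35.3 and 35.8% to between 29.3 and 31.8%.

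The exchange factor of elongation factor 1-alpha is made of efb1, the beta subunit, and tef4, a gamma subunit. efb1 read 981, 936 and 975 CPM in exponential glucose and 219.9, 208 and 277 CPM in starved glucose libraries, and it fell by 2.04 (SE 0.15, adjusted p = 1.95e-09) on the log2 scale. On xylose efb1 read 777, 1072 and 710.2 CPM in exponential growth, where library B stood above the other two, and 200.1, 251 and 242 CPM in starvation, and it fell by 1.88 (SE 0.15, adjusted p = 5.16e-09). tef4 had log2 changes of -1.97 on glucose and -1.64 on xylose. The translocase eft1, elongation factor 2, fell on both sugars, at -1.76 on glucose and -1.71 on xylose. The fungal ATPase hef3, elongation factor 3, fell on both sugars, with log2 changes of -1.62 on glucose and -1.62 on xylose. Summed over the 6 loci, the elongation factors read 26852, 25836 and 26274 CPM in exponential glucose and 6143, 6358 and 6494 CPM in starved glucose libraries, so that the mean was 4.16-fold lower in starvation. On xylose the sums were 22955, 23984 and 22698 CPM and 7688, 7424 and 6775 CPM, a 3.18-fold lower mean. The role's median log2 change was -1.86 on glucose and -1.66 on xylose.

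Release of the finished chain was represented by sup35, the GTPase subunit of the release factor, since sup45 was listed at 0. sup35 read 524, 492 and 507 CPM in exponential glucose and 212, 183 and 220.4 CPM in starved glucose libraries, a log2 change of -1.31 (SE 0.083, adjusted p = 3.61e-10). On xylose sup35 read 455, 479 and 432 CPM and 199, 197 and 204 CPM, a log2 change of -1.19 (SE 0.083, adjusted p = 1.19e-09). Starved and exponential libraries did not overlap on either sugar. hbs1, the rescue factor, went the other way on glucose, where it read 90.0, 97.6 and 104 CPM in exponential growth and 112, 127 and 128 CPM in starvation and rose by 0.33 (SE 0.088, adjusted p = 0.00247). On xylose hbs1 read 84.6, 97.6 and 87.6 CPM and 93.1, 94.3 and 88.0 CPM, with overlapping libraries and a log2 change of 0.029 (SE 0.088, adjusted p = 0.765).

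eIF3, the large scaffold that holds the small ribosomal subunit ready for the message, showed the lowest medians of the roles in the plot of starvation changes by role, -2.45 on glucose and -2.23 on xylose. Of its 11 tested loci 9 fell on both sugars, and these were the tested loci without a second copy together with nip1 and tif34. The lowest value belonged to PHBOTO_000693, subunit H, which read 368, 328 and 330.1 CPM in exponential glucose and 32.2, 39.5 and 42.4 CPM in starved glucose libraries. On xylose PHBOTO_000693 read 331, 369.5 and 319 CPM and 48.9, 42.6 and 41.2 CPM. It was 8.99-fold lower on glucose and 7.68-fold lower on xylose by the ratio of means, with fitted log2 changes of -3.17 (SE 0.11, adjusted p = 2.66e-13) and -2.94 (SE 0.11, adjusted p = 5.97e-13). Subunit A (rpg1) had log2 changes of -2.67 on glucose and -2.64 on xylose. Subunit E (PHBOTO_000459) fell on both sugars, at -2.63 on glucose and -2.68 on xylose. Subunit J (PHBOTO_004371), a loosely bound subunit, had the smallest fall of the 9, with log2 changes of -1.31 on glucose and -1.19 on xylose. Summed eIF3 CPM was 4.16-fold lower in starvation on glucose and 3.90-fold lower on xylose.

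eIF2 carries the initiator tRNA, and its 3 subunits all fell on both sugars, with a median of -1.68 on glucose and -1.62 on xylose. sui2 encodes the alpha subunit, the one that is phosphorylated when amino acids run short. sui2 read 522, 557 and 559 CPM in exponential glucose and 73.1, 69.1 and 74.9 CPM in starved glucose libraries, and 507, 468 and 471 CPM and 86.6, 70.8 and 65.5 CPM on xylose. The groups were far apart in every library, and sui2 fell on both sugars, with log2 changes of -2.92 (SE 0.10, adjusted p = 1.96e-13) on glucose and -2.70 (SE 0.10, adjusted p = 5.14e-13) on xylose. The gamma subunit gcd11, which binds the tRNA and GTP, read 624, 620.3 and 595 CPM against 177, 183 and 213 CPM on glucose and fell there (-1.68 on the log2 scale) and on xylose (-1.62). The beta subunit sui3 fell on both sugars, with log2 changes of -1.63 on glucose and -1.43 on xylose.

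eIF2B recharges eIF2 with GTP, and its 5 subunits had smaller changes than the 3 of eIF2, a difference that was not tested. All 5 fell on glucose, with a median of -0.62, but on xylose gcd7 and gcd6 alone passed the test and the median was -0.11. gcd2, the delta subunit, read 166, 162 and 169 CPM in exponential glucose and 111, 136 and 121 CPM in starved glucose libraries, a log2 change of -0.43 (SE 0.085, adjusted p = 0.000196). On xylose gcd2 read 139, 136 and 127 CPM and 136, 123 and 123 CPM, a log2 change of -0.072 (SE 0.085, adjusted p = 0.44). gcn3, the alpha subunit, which in Saccharomyces cerevisiae senses phosphorylated eIF2, read 127, 130.1 and 131 CPM and 102, 80.6 and 91.0 CPM on glucose and fell, with a log2 change of -0.51 (SE 0.094, adjusted p = 0.000109). On xylose gcn3 read 108, 99.0 and 101 CPM and 111, 93.3 and 98.9 CPM, overlapping, with a log2 change of -0.020 (SE 0.093, adjusted p = 0.85). The beta subunit gcd7 had log2 changes of -1.18 on glucose and -0.95 on xylose. The epsilon subunit gcd6, which holds the exchange activity, fell on both sugars, at -0.86 on glucose and -1.06 on xylose.

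The cap-binding factor eIF4E (cdc33) read 284, 278 and 283 CPM in exponential glucose and 133, 120.1 and 115 CPM in starved glucose libraries, and it fell on both sugars, with log2 changes of -1.20 (SE 0.10, adjusted p = 1.26e-08) on glucose and -1.16 (SE 0.10, adjusted p = 1.88e-08) on xylose. eIF4B (tif3), which helps unwind the message leader, read 174, 143 and 156 CPM and 58.2, 68.3 and 61.2 CPM on glucose and fell there (-1.33 on the log2 scale) and on xylose (-1.38). cdc33_2, a putative second eIF4E, was close to the detection limit, with 0.399, 0.500 and 0.0974 CPM in exponential glucose and 0.383, 0.121 and 0.441 CPM in starved glucose libraries. On xylose cdc33_2 read 0.374, 0.546 and 0.459 CPM and 0.913, 0.774 and 0.243 CPM. A change in cdc33_2 was not detectable at this depth, with log2 changes of -0.17 (SE 0.74, adjusted p = 0.84) and 0.44 (SE 0.62, adjusted p = 0.525).

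Among the 8 other tested initiation factors 6 fell on both sugars. ygr054w, eIF2A, an alternative carrier of initiator tRNA, read 309, 320.2 and 319.9 CPM and 51.6, 41.0 and 60.4 CPM on glucose and 302, 326 and 299 CPM and 47.2, 53.0 and 50.0 CPM on xylose, and it fell on both sugars, with log2 changes of -2.63 on glucose and -2.63 on xylose. hyp2 encodes eIF5A, which helps ribosomes through difficult stretches. hyp2 read 2895, 3023 and 3085 CPM in exponential glucose and 776, 739 and 863 CPM in starved glucose libraries, and it fell on both sugars, with log2 changes of -1.92 (SE 0.092, adjusted p = 9.8e-12) on glucose and -1.69 on xylose. The recycling ATPase rli1 had log2 changes of -2.34 on glucose and -2.02 on xylose. eIF1A (tif11), which helps scanning, fell on both sugars, at -1.53 on glucose and -1.49 on xylose. eIF5B (fun12), which joins the ribosomal subunits, fell on both sugars, with log2 changes of -1.29 on glucose and -1.12 on xylose. eIF5 (tif5), which makes eIF2 hydrolyse its GTP, had log2 changes of -0.39 on glucose and -0.41 on xylose.

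sui1 encodes eIF1, which guards start codon choice, and it did not follow the others. sui1 read 392, 418 and 370.3 CPM in exponential glucose and 402, 429 and 419.7 CPM in starved glucose libraries, which overlapped, and its log2 change was 0.084 (SE 0.075, adjusted p = 0.308). On xylose sui1 read 383, 366 and 386 CPM and 414, 424 and 402 CPM, all 3 starved libraries being the higher ones, with a log2 change of 0.13 (SE 0.074, adjusted p = 0.119). Its starved and exponential means, 417 ± 13.8 and 393 ± 23.8 CPM (SD, n = 3) on glucose, thus lay within 1.06-fold of each other. PHBOTO_003134, an unnumbered initiation factor at a low level, read 9.22, 7.49 and 7.35 CPM and 13.8, 11.0 and 11.8 CPM on glucose and rose by 0.60 (SE 0.20, adjusted p = 0.0105). On xylose PHBOTO_003134 read 8.79, 9.61 and 9.94 CPM and 12.1, 8.69 and 15.1 CPM with overlap, a log2 change of 0.34 (SE 0.19, adjusted p = 0.116). Without starved xylose library B that change was 0.53 and passed the test (adjusted p = 0.0155, edgeR).

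Of the 28 tested synthetases 26 fell on each sugar and 1 rose. Synthetases whose product did not say mitochondrial were counted as cytosolic. These had a median of -1.29 on glucose, with 14 of 16 falling, and -1.44 on xylose, with 15 of 16 falling. They include PHBOTO_002299, whose product gives no compartment and which was not called on glucose. gln4, the glutamine ligase, read 16.2, 16.4 and 18.8 CPM in exponential glucose and 2.88, 0.785 and 3.21 CPM in starved glucose libraries. On xylose gln4 read 22.9, 21.1 and 24.3 CPM and 3.29, 2.00 and 4.74 CPM. The groups did not overlap, and gln4 fell on both sugars, with log2 changes of -2.91 (SE 0.34, adjusted p = 6.47e-07) on glucose and -2.75 (SE 0.31, adjusted p = 4.97e-07) on xylose. Its starved levels were under 5 CPM in every library. The tryptophan ligase wrs1 fell on both sugars, at -2.37 on glucose and -2.48 on xylose. The tyrosine ligase tys1 fell on both sugars, with log2 changes of -1.93 on glucose and -1.92 on xylose. The leucine ligase cdc60 had log2 changes of -1.87 on glucose and -1.96 on xylose. At the other end, the asparagine ligase ded81 read 397, 370.4 and 386 CPM and 300.0, 281 and 307 CPM on glucose and fell on both sugars, with log2 changes of -0.38 (SE 0.079, adjusted p = 0.000337) on glucose and -0.24 on xylose (adjusted p = 0.0113). Without starved xylose library C the log2 change of ded81 on xylose was -0.17 and missed the threshold (adjusted p = 0.0648, edgeR).

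Among the synthetases, dps1_2 rose strongly, and it carries the product name of a putative cytosolic aspartate ligase. dps1_2 read 83.9, 97.9 and 88.4 CPM in exponential glucose and 695, 1068 and 1116 CPM in starved glucose libraries. On xylose dps1_2 read 48.4, 49.6 and 50.6 CPM in exponential growth and 848, 737 and 802 CPM in starvation. Every starved library lay above every exponential library, 10.7-fold higher on glucose and 16.1-fold higher on xylose by the ratio of means, with fitted log2 changes of 3.41 (SE 0.15, adjusted p = 3.23e-12) and 4.01 (SE 0.15, adjusted p = 7.87e-13). The locus named dps1, the cytosolic aspartate ligase without the putative label, was listed at 0 in all libraries, so no second aspartate value can be set beside it apart from the mitochondrial msd1, which fell on both sugars, at -2.22 on glucose and -1.83 on xylose. PHBOTO_002299, a seryl-tRNA synthetase whose product gives no compartment, read 29.7, 28.1 and 30.2 CPM in exponential glucose and 34.0, 22.4 and 17.8 CPM in starved glucose libraries, with overlap and a log2 change of -0.25 (SE 0.17, adjusted p = 0.201). On xylose PHBOTO_002299 read 24.7, 25.7 and 26.0 CPM and 14.1, 11.8 and 13.1 CPM and fell, with a log2 change of -0.97 (SE 0.18, adjusted p = 9.77e-05). Starved glucose library A was the highest of its 12 libraries, and without that library the log2 change on glucose was -0.54 and passed the test (adjusted p = 0.000856, edgeR). The serine ligase ses1, whose product says cytoplasmic, fell on both sugars, with log2 changes of -1.89 on glucose and -1.63 on xylose.

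Synthetases labelled mitochondrial had a median of -1.26 on glucose, where all 12 tested loci fell, and -0.995 on xylose, where 11 of 12 fell. This label covers 2 tested ligases, grs1 for glycine and vas1 for valine, that in Saccharomyces cerevisiae serve both cytosol and mitochondria. Without grs1, vas1 and ala1_2, whose counterpart ala1 also serves both there, the 9 remaining loci had medians of -1.12 and -0.87. vas1 read 670.2, 632 and 622 CPM in exponential glucose and 185, 185 and 203 CPM in starved glucose libraries, and it fell, with a log2 change of -1.75 on glucose and -1.71 on xylose. grs1 read 460.2, 469 and 465 CPM and 133, 126 and 112 CPM on glucose and 455, 468 and 438 CPM and 82.8, 93.7 and 92.1 CPM on xylose, and it fell on both sugars, with log2 changes of -1.91 (SE 0.083, adjusted p = 3.24e-12) on glucose and -2.34 (SE 0.085, adjusted p = 4.23e-13) on xylose. The mitochondrial aspartate ligase msd1 read 42.6, 41.4 and 39.5 CPM and 7.92, 9.06 and 9.44 CPM on glucose, the lowest change of its role there at -2.22. The mitochondrial methionine ligase msm1 was the least changed, with 88.2, 89.6 and 79.8 CPM in exponential glucose and 51.0, 82.4 and 71.1 CPM in starved glucose libraries, which overlapped. msm1 fell, with a log2 change of -0.33 on glucose (SE 0.15, adjusted p = 0.0489), a call lost without 10 of the 12 libraries taken singly, among them starved glucose library A (log2 change -0.16, adjusted p = 0.237). That call was also lost in edgeR with DESeq2 size factors (adjusted p = 0.0706) or a replicate block (adjusted p = 0.0647). DESeq2's Wald test did not call it either (adjusted p = 0.0673). On xylose msm1 read 89.6, 69.9 and 81.8 CPM and 77.4, 63.1 and 59.6 CPM, with overlap and a log2 change of -0.27 (SE 0.15, adjusted p = 0.0994).

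The mitochondrial factors run translation inside the organelle, and the 4 tested loci all fell on glucose, with a median of -1.35. mrf1, the mitochondrial release factor, read 24.8, 25.3 and 28.9 CPM in exponential glucose and 2.43, 4.77 and 6.23 CPM in starved glucose libraries, and it fell, with a log2 change of -2.55 (SE 0.31, adjusted p = 1.02e-06). On xylose mrf1 read 29.3, 27.8 and 30.9 CPM and 10.9, 5.42 and 4.14 CPM and fell, with a log2 change of -2.14 (SE 0.29, adjusted p = 4.01e-06). ylr281c, a release factor-like protein, had log2 changes of -1.18 on glucose and -1.41 on xylose. ifm1, the mitochondrial counterpart of the factor that joins initiator tRNA and ribosome, read 441, 418 and 419 CPM and 147, 164 and 185 CPM on glucose and 412, 370.1 and 354 CPM and 247, 168 and 195 CPM on xylose. It fell on both sugars, at -1.37 on glucose and -0.90 on xylose. tuf1, the organelle's carrier of charged tRNA, fell on glucose alone and is described with the sugar differences.

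The CPM of the synthetases and of the initiation factors were also summed per library. The loci listed at 0, 7 synthetases and 3 initiation factors, add nothing to these sums. The 37 synthetases read 7116, 6886 and 6923 CPM in exponential glucose and 3417, 3787 and 3907 CPM in starved glucose libraries, a mean 1.88-fold lower in starvation, and the ratio on xylose was also 1.88-fold. The 33 initiation factors read 13601, 13543 and 13538 CPM and 4217, 4305 and 4448 CPM on glucose, 3.14-fold lower in starvation, and were 2.87-fold lower on xylose. The synthetase sum holds dps1_2, which rose, and that locus sets much of its ratio. Without dps1_2, left out after its values were seen, the synthetases read 7032, 6788 and 6835 CPM in exponential glucose and 2722, 2719 and 2790.5 CPM in starved glucose libraries, 2.51-fold lower in starvation, and were 2.44-fold lower on xylose. The cytosolic synthetases were 1.66-fold and 1.68-fold lower with dps1_2 and 2.40-fold and 2.34-fold lower without it. Ribosomal protein genes, measured in the same libraries, fell further than any of these sums, 8.10-fold on glucose and 5.17-fold on xylose, with 72 and 73 of 75 tested loci falling and median log2 changes of -3.29 and -2.48. These differences between sums and medians are descriptions and were given no test.

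**Figure D2:**
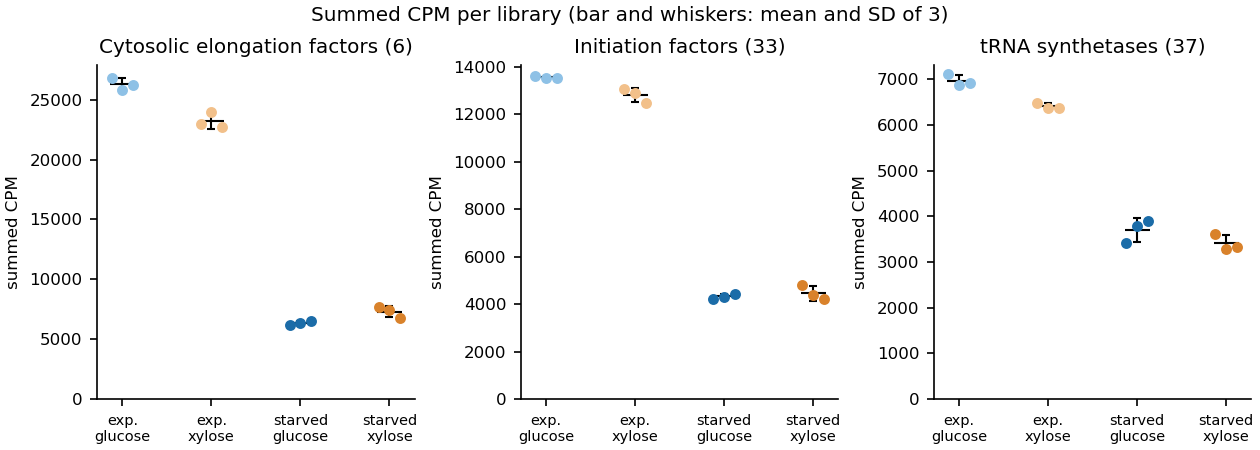
Summed CPM per library (y axis, from 0) of the 6 cytosolic elongation factors, the 33 initiation factors and the 37 tRNA synthetases in the 4 conditions (x axis); points are libraries, and bars with whiskers are the mean and SD of 3 libraries. In each panel all starved libraries lie below all exponential libraries, and the mean ratio on glucose is 4.16-fold for elongation, 3.14-fold for initiation and 1.88-fold for synthetases, which is 2.51-fold without dps1_2. Loci listed at 0, 3 initiation factors and 7 synthetases, add nothing to the sums.

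For some product names the annotation holds more than 1 locus. Among 4 such pairs, picked after their values were seen, both copies were detected well above 1 CPM. The copies were called in opposite directions in 3 of the 4 on glucose and in 2 of the 4 on xylose. The serine loci ses1 and PHBOTO_002299, whose product names differ, are not among the 4 and were not called in opposite directions on either sugar. tef1_2, a putative elongation factor 1-alpha, read 44.4, 42.8 and 47.1 CPM in exponential glucose and 85.5, 93.5 and 87.2 CPM in starved glucose libraries. On xylose tef1_2 read 45.1, 48.5 and 45.9 CPM and 52.5, 68.3 and 65.1 CPM. Its starved libraries were the higher ones on both sugars, and it rose on both sugars, with log2 changes of 0.99 (SE 0.10, adjusted p = 1.22e-07) on glucose and 0.42 (SE 0.099, adjusted p = 0.00112) on xylose, whereas tef1 fell on both sugars, with log2 changes of -2.23 on glucose and -1.68 on xylose. PHBOTO_006346 carries the product name eIF3 subunit C and bears the locus number next to that of nip1. PHBOTO_006346 read 32.4, 29.7 and 33.1 CPM in exponential glucose and 105, 111 and 107 CPM in starved glucose libraries, and 29.8, 26.1 and 27.6 CPM and 104, 118 and 84.5 CPM on xylose. It rose on both sugars, with log2 changes of 1.77 (SE 0.11, adjusted p = 3.35e-10) on glucose and 1.87 (SE 0.11, adjusted p = 1.62e-10) on xylose, with no overlap on either sugar. nip1 itself had log2 changes of -2.45 on glucose and -2.32 on xylose.

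tif34_2, a putative eIF3 subunit I, read 143, 126 and 127 CPM in exponential glucose and 166, 154 and 150.5 CPM in starved glucose libraries, and it rose by 0.25 (SE 0.090, adjusted p = 0.0164). That call was lost, at a log2 change of 0.21 to 0.23, without exponential glucose library B (adjusted p = 0.0675) or C (adjusted p = 0.062), without starved glucose library A (adjusted p = 0.0545) and under upper quartile scaling (adjusted p = 0.0516, all in edgeR). On xylose tif34_2 read 106, 109.8 and 108 CPM and 128, 119.8 and 103 CPM, with overlap and a log2 change of 0.12 (SE 0.090, adjusted p = 0.244), which passed the test without starved xylose library C (log2 change 0.20, adjusted p = 0.0474). The first copy tif34 read 826, 824 and 760.1 CPM in exponential glucose and 129, 137 and 149.5 CPM in starved glucose libraries, and it fell on both sugars, at -2.54 on glucose and -2.23 on xylose. The threonine ligases did move together, with log2 changes of -1.76 on glucose and -1.67 on xylose for ths1, and of -1.38 and -1.55 for the putative ths1_2. How reads that fit more than 1 locus were counted is not given in the sources used here, so values of copies are uncertain wherever their sequences are close.

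**Figure D3:**
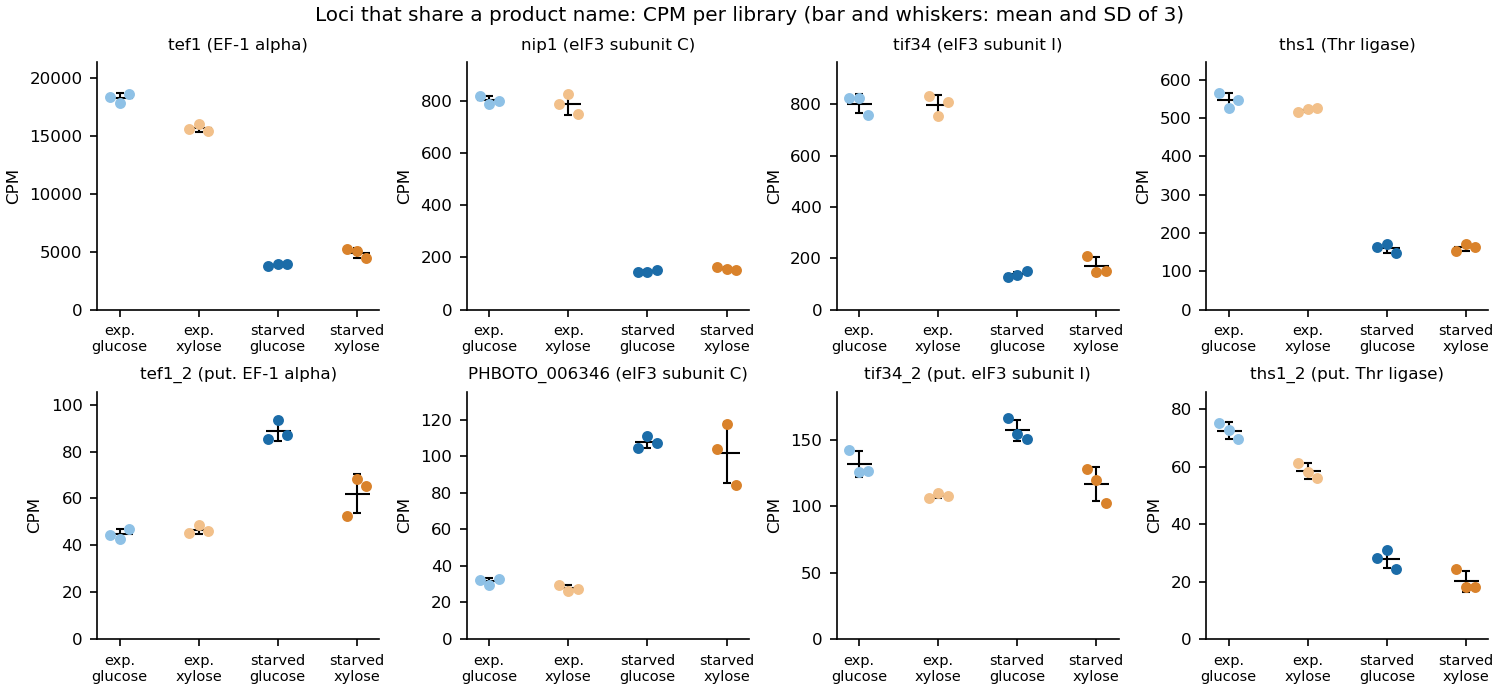
CPM per library (y axis, from 0) in the 4 conditions (x axis) for 4 loci (top) and the second locus with the same product name (bottom); points are libraries, and bars with whiskers are the mean and SD of 3 libraries. The top row is lower in starvation throughout, tef1_2 and PHBOTO_006346 are higher in starvation on both sugars, tif34_2 is higher on glucose, and ths1_2 is lower like ths1.

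In exponential growth the apparatus differed little between the sugars. Compared with glucose, 5 of the 72 loci were called lower on xylose and none higher, where 20.7% of all genes were called, 9.94% higher and 10.8% lower. DESeq2's Wald test called 8 loci lower and none higher. The median log2 difference was -0.11, beside -0.03 for all genes. Of the 72 values 61 were below 0, beside 3230 of the 5805 genes tested. Libraries of the 2 sugars did not overlap for 37 loci, 36 of them lower on xylose, where 53.2% of all genes did not overlap and 29.2% were lower. No locus also passed a 2-fold difference, which 4.25% of all genes did. The largest difference was in dps1_2, whose exponential values given above were 1.82-fold lower on xylose, a log2 difference of -0.86 (SE 0.14, adjusted p = 0.000264). gcn3 differed by -0.34 (SE 0.093, adjusted p = 0.0164). gcd2 differed by -0.31 (SE 0.084, adjusted p = 0.0155). tif34_2 differed by -0.29 (SE 0.089, adjusted p = 0.0305). The phenylalanine ligase subunit frs2 differed by -0.27 (SE 0.088, adjusted p = 0.0351). dps1_2 was the 1 locus that stayed called under every setting tried except the 2-fold rule, and only it was left without exponential glucose library C or without exponential xylose library C.

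In nitrogen starvation 15 loci differed between the sugars, 6 higher and 9 lower on xylose. Of all genes tested 42.1% were called in this comparison, 23% higher and 19.2% lower. No locus passed a 2-fold change as well, a rule that 5.51% of all genes met. Among those called, tuf1 was 1.95-fold higher on xylose, a log2 difference of 0.96 (SE 0.12, adjusted p = 1.42e-05). PHBOTO_002299 was lower on xylose, with a log2 difference of -0.93 (SE 0.18, adjusted p = 0.000814), with all 3 xylose libraries below all 3 glucose libraries. The chromatin factor PHBOTO_000678 read 37.4, 27.8 and 32.7 CPM on glucose and 18.3, 18.4 and 21.2 CPM on xylose and was lower on xylose, with a log2 difference of -0.76 (SE 0.14, adjusted p = 0.00049). tef1_2 was lower on xylose, with a log2 difference of -0.52 (SE 0.099, adjusted p = 0.000744). Smaller differences placed tef1 (0.33) and gcd1 (0.33), the gamma subunit of eIF2B, higher on xylose, and grs1 (-0.47), ths1_2 (-0.48), tif34_2 (-0.43) and hbs1 (-0.41) lower. These 10 loci stayed called under every setting tried except the 2-fold rule. The other 5 were msy1 (0.42), trl1 (0.36) and PHBOTO_005453 (0.33), higher on xylose, and aim10 (-0.37) and gcd6 (-0.23), lower. Each of these lost its call without at least 1 library. Without starved xylose library A, trl1 stood at 0.26 (adjusted p = 0.0625), msy1 at 0.25 (adjusted p = 0.106) and PHBOTO_005453 at 0.16 (adjusted p = 0.184), all in edgeR. Without starved glucose library A, aim10 stood at -0.26 (adjusted p = 0.0942) and gcd6 at -0.19 (adjusted p = 0.0849), and the remaining such settings are listed with the processing settings.

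**Figure D4:**
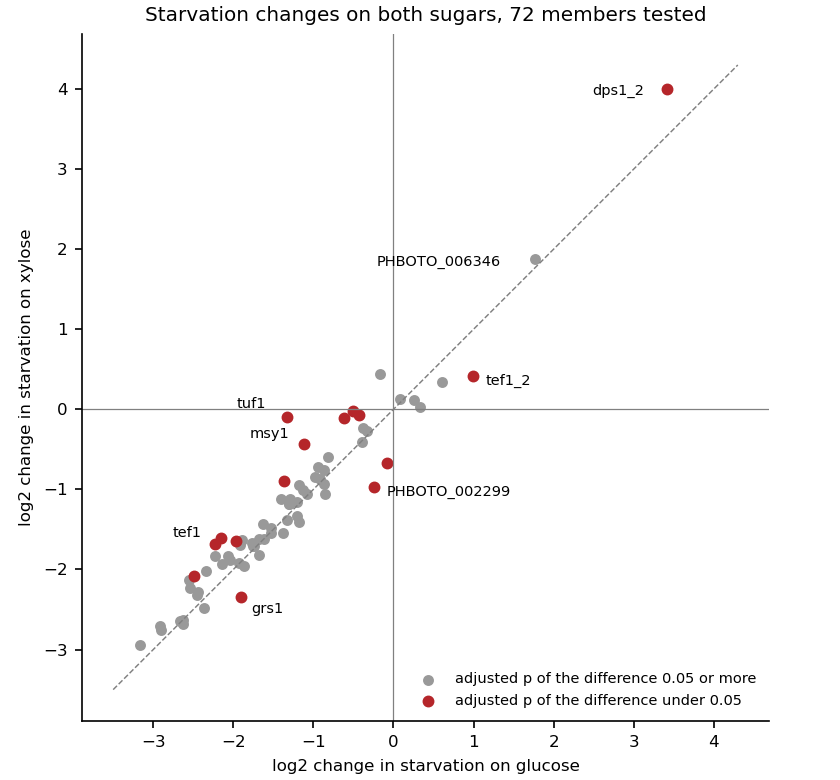
Log2 change in starvation on glucose (x axis) against that on xylose (y axis) for the 72 tested loci, with the dashed line marking equal changes; red points had an adjusted p under 0.05 for the difference between the 2 changes. Most points follow the line from about -3 upward, and tuf1 lies farthest above it, with -1.33 on glucose and -0.092 on xylose.

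The difference between the starvation changes on the 2 sugars was tested directly as an interaction. It was called for 15 of the 72 loci, 11 with a higher value on xylose and 4 with a lower one, where 38.2% of all genes were called, 21.7% higher and 16.5% lower. tuf1 had the largest difference. tuf1 read 354, 338 and 333 CPM in exponential glucose and 109, 134 and 164 CPM in starved glucose libraries, and it fell, with a log2 change of -1.33 (SE 0.12, adjusted p = 2.47e-08). On xylose tuf1 read 282, 287 and 276 CPM and 292, 238 and 262 CPM, which overlapped, with a log2 change of -0.092 (SE 0.12, adjusted p = 0.472). The 2 changes differed by 1.24 (SE 0.16, adjusted p = 3.43e-05), and tuf1 was the 1 locus whose difference exceeded 2-fold, where 9.32% of all genes met that rule.

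Other organelle loci were among the 11. msy1, the mitochondrial tyrosine ligase, read 80.3, 80.9 and 77.6 CPM and 42.4, 32.9 and 34.6 CPM on glucose and 72.4, 61.5 and 64.4 CPM and 58.9, 46.4 and 41.9 CPM on xylose, and its changes differed by 0.69 (SE 0.18, adjusted p = 0.00654). For ifm1 the difference was 0.47 (SE 0.17, adjusted p = 0.041), and it lost its call without 8 of the 12 libraries taken singly, with 0.25 (adjusted p = 0.2, edgeR) without starved xylose library A. Of the 16 tested loci with a mitochondrial label, 3 had a called higher value on xylose and 1, grs1, a lower one. Over all genes tested 21.7% were called higher and 16.5% lower in this interaction.

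Of the 5 subunits of eIF2B, 3 had a called higher value on xylose, where 21.7% of all genes tested were called higher. gcd1 read 154, 146 and 141 CPM and 83.4, 94.9 and 108 CPM on glucose and 127, 127 and 133 CPM and 121, 123 and 115 CPM on xylose, a difference between the changes of 0.52 (SE 0.13, adjusted p = 0.00463). For gcn3 the difference was 0.49 (SE 0.13, adjusted p = 0.00889) and for gcd2 it was 0.36 (SE 0.12, adjusted p = 0.0265). gcd2 lost its call without exponential glucose library A or C, exponential xylose library C, starved glucose library A or starved xylose library A. Without the last of these its difference was 0.26 (adjusted p = 0.115, edgeR). The other 2 subunits were not called, with 0.23 for gcd7 (SE 0.12, adjusted p = 0.149) and -0.20 for gcd6 (SE 0.11, adjusted p = 0.161).

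The elongation factor tef1 had a smaller fall on xylose, with a difference of 0.56 (SE 0.12, adjusted p = 0.00216), and tef1_2 a smaller rise, with -0.57 (SE 0.14, adjusted p = 0.00467). The glycine ligase grs1 fell more on xylose, with -0.43 (SE 0.11, adjusted p = 0.00749), and the splicing ligase trl1 fell less, with 0.55 (SE 0.14, adjusted p = 0.00569). These 4 loci, with tuf1, msy1, gcd1 and gcn3, stayed called in every setting other than the 2-fold rule. The remaining 7 each lost the call in some setting that left out a library. For dps1_2 the difference was 0.59 (SE 0.19, adjusted p = 0.0243) and it was 0.49 without starved xylose library A (adjusted p = 0.0931, edgeR). The call of dps1_2 was also lost without exponential glucose library B or exponential xylose library A. For PHBOTO_002299 the difference was -0.73 (SE 0.25, adjusted p = 0.0299), a call lost without 7 of the 12 libraries taken singly. It was -0.43 without starved glucose library A (adjusted p = 0.0521, edgeR). In the same starved libraries 68 of 75 ribosomal protein loci were higher on xylose than on glucose, and 67 of 75 had a called higher interaction, with a median of 0.73 beside 0.12 for the 72 loci described here.

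**Figure D5:**
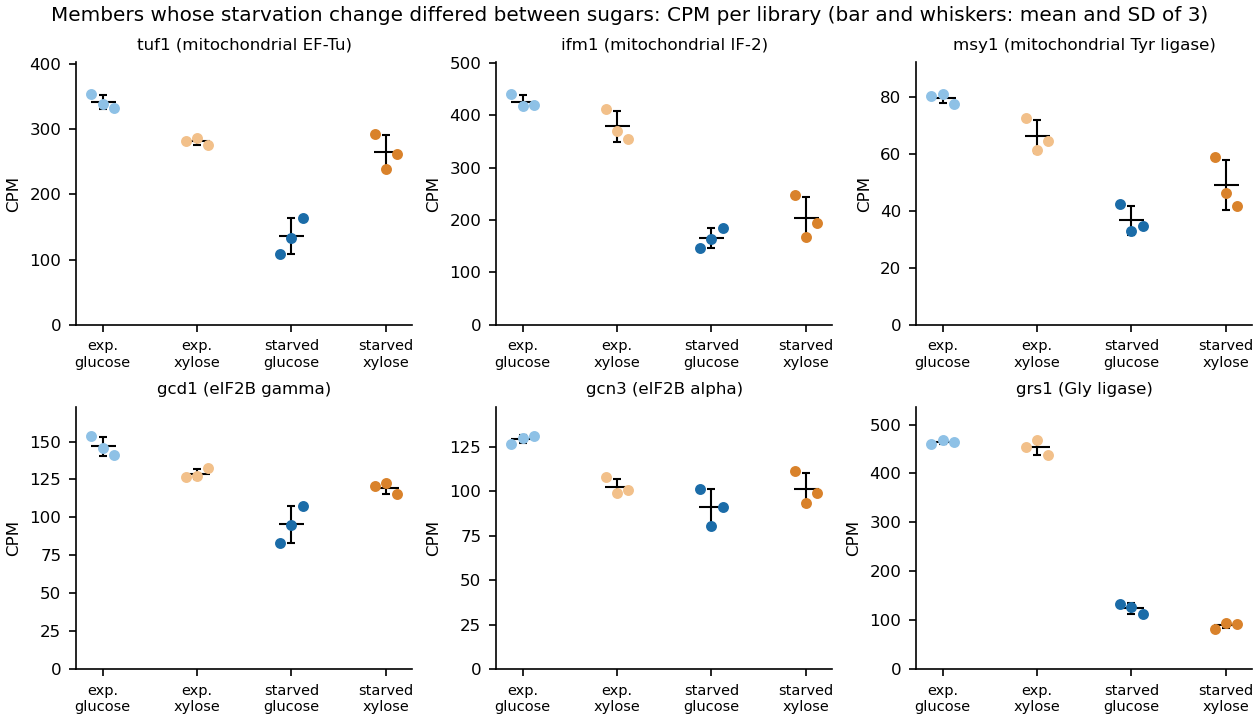
CPM per library (y axis, from 0) in the 4 conditions (x axis) for 6 loci whose starvation change differed between the sugars; points are libraries, and bars with whiskers are the mean and SD of 3 libraries. tuf1, ifm1, msy1, gcd1 and gcn3 drop more on glucose than on xylose, and grs1 drops more on xylose.

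Loci near this apparatus in function were taken from product names as well. Of 19 tested other translation products 14 fell and 4 rose on glucose, with a median of -1.49, and 12 fell and 5 rose on xylose, with a median of -1.23. Over all genes tested 41.1% fell and 40.1% rose on glucose, and 40.6% fell and 40.6% rose on xylose. The helicase eIF4A (tif1) went from 1501 ± 60.8 to 405 ± 8.88 CPM on glucose (mean ± SD, n = 3) and had log2 changes of -1.89 there and -1.71 on xylose. The poly-A binding protein pab1 fell on both sugars, with log2 changes of -2.03 on glucose and -1.78 on xylose. Its putative copies pab1_4 and pab1_5 rose by 1.05 and 1.52 on glucose, whereas pab1_2 fell, with a log2 change of -2.97. The alpha subunit of the nascent chain complex, egd2, which receives chains leaving the ribosome, had log2 changes of -2.44 on glucose and -2.38 on xylose.

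Proteins that modify, process or carry tRNA changed in both directions. On glucose 33 of 46 tested loci fell and 8 rose, with a median of -0.60, where 41.1% of all genes fell and 40.1% rose. On xylose 28 fell and 10 rose, with a median of -0.46, where 40.6% of all genes fell and 40.6% rose. Predicted tRNA genes were mostly too low to test in these poly-A libraries, 22 of 163 passing the filter, and 4 rose and 3 fell on glucose. Of the 5 tested loci of the amino acid starvation signal, 1 rose and 3 fell on glucose, and 1 rose and 4 fell on xylose. The one that rose, gcn2, the kinase that phosphorylates eIF2 alpha, had log2 changes of 0.83 (SE 0.079, adjusted p = 5.2e-08) on glucose and 0.66 (SE 0.078, adjusted p = 8.83e-07) on xylose. Its activator gcn1 fell on both sugars, at -1.75 on glucose and -1.57 on xylose, and gcn20, which works with gcn1, fell on both sugars, with log2 changes of -1.22 on glucose and -1.13 on xylose. yih1, which in Saccharomyces cerevisiae restrains gcn1, had log2 changes of -1.12 on glucose and -1.61 on xylose. gcn20_2, a putative second gcn20, was not called on glucose, with a log2 change of 0.031 (SE 0.083, adjusted p = 0.739), and fell on xylose, with -0.70 (SE 0.083, adjusted p = 8.91e-07). gcn1 and gcn2 are also counted among the other translation products.

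The authors' deposited table listed a fall for 61 of the 72 loci and a rise for 6 on glucose at an adjusted p under 0.05, and 59 fell and 3 rose on xylose. For the sugars it listed 8 loci lower and none higher in exponential growth, and 9 lower and 6 higher in starvation. No locus had opposite calls in the authors' deposited table and in edgeR, and the log2 changes differed by at most 0.07.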

How the data were processed

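Per the labels, poly-A RNA libraries were made with a stranded kit from 12 samples. Per the submitters' processing notes, reads went through bcl2fastq 2.20.0.422, CASAVA, Trim Galore 0.6.1, cutadapt 2.3, HISAT2 2.2.1 and DESeq2; the read counter, genome build and treatment of reads with several matches were not stated there. Per the file headers, the deposited table holds raw counts per locus and library, which were whole numbers. Its normalized counts are a signal that the authors deposited, and each was found to equal the count divided by 1 factor per library. For each of 4 comparisons the authors deposited a mean signal, a log2 fold change, its standard error and test statistic (a score), and a p-value with its adjusted form.

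Raw counts were analysed in R 4.3.3 with edgeR 4.0.16 (limma 3.58.1): TMM scaling, filterByExpr by group (minimum count 10, total 15), 1 coefficient per group over all 12 libraries, glmQLFit and glmQLFTest, and Benjamini-Hochberg adjustment over 5805 genes. The fit was tested on simulated data. Standard errors (SE) were derived as log2 change over the root of the F statistic, with 8 residual degrees of freedom from samples. CPM uses TMM-scaled library sizes, and errors of CPM are SDs over 3 libraries. No 2 libraries of a group agreed within sampling noise: their counts differed by 11.5 to 97.0 chi-square per degree of freedom, with 41.4 and more in the starved groups.

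Members and lists were chosen with earlier results of these data known. Values per library are given, in each role, for the loci with the largest and smallest starvation change on each sugar, for those against most of their role, for the highest mean level, and for up to 4 called differences per sugar comparison and interaction. Others are given by counts, medians and single values, and the pairs of copies were added after their values were seen. Alternatives were DESeq2 1.42.0 size factors and its Wald test, upper quartile scaling, no filter, a replicate block, a 2-fold rule and leaving out each library. The main fit did not pair samples by replicate letter, and whether a letter marks 1 culture sampled at both time points was not tested. No sequence is shown. Figures were drawn with matplotlib 3.10.9.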

Additional observations from a re-analysis of the deposited data

Results flagged for a closer look

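For 15 loci the starvation change differed between the sugars by a test of the difference itself (interaction in edgeR, adjusted over 5805 genes), in a comparison where 38.2% of all genes were called. Values are the log2 change on xylose minus that on glucose. It was 1.24 for tuf1, 0.69 for msy1, 0.59 for dps1_2, 0.56 for tef1, 0.55 for trl1 and 0.52 for gcd1. It was 0.49 for gcn3, 0.47 for ifm1, 0.41 for PHBOTO_005453, 0.36 for gcd2 and 0.32 for tef4. The loci with a lower value on xylose were PHBOTO_002299 (-0.73), PHBOTO_000678 (-0.59), tef1_2 (-0.57) and grs1 (-0.43). For PHBOTO_005453, subunit K of eIF3, the call (SE 0.15, adjusted p = 0.0396) was lost without 9 of the 12 libraries taken singly, and its difference was 0.21 without starved xylose library A (adjusted p = 0.19, edgeR). For tef4 (SE 0.12, adjusted p = 0.037) it was lost without 7 of the 12, and its difference was 0.26 without starved xylose library A (adjusted p = 0.119, edgeR). For PHBOTO_000678 (SE 0.19, adjusted p = 0.0231) it was lost without exponential glucose library A (-0.53, adjusted p = 0.0677) and without exponential xylose library A (-0.50, adjusted p = 0.0706).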

How the results depend on the processing

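The counts of loci called in starvation were 66 to 68 on glucose and 62 to 63 on xylose when each library was left out, and 67 and 62 with the replicate block. With that block the counts were 5 for the sugars in exponential growth, 15 in starvation and 14 for the interaction. Same-letter libraries of different groups had correlations of -0.12 to 0.17 between their deviations from the group mean. With 3 libraries per group these values cannot show whether a letter marks a pairing. In exponential growth the 5 loci became 8 under DESeq2's Wald test and 1 to 7 when a library was left out. The 15 loci in starvation became 13 to 22 when a library was left out. The 15 of the interaction became 9 to 17, with 9 without exponential glucose library A. Under DESeq2 size factors the interaction kept 12, with ifm1, tef4 and PHBOTO_005453 losing their calls, and the replicate block lost tef4. Asking for a 2-fold change as well left 0 and 0 loci for the sugars in exponential growth and in starvation and 1 for the interaction. For starvation against exponential growth it left 51 on glucose and 48 on xylose. Of 130 called starvation results 127 kept direction and call in every setting other than the 2-fold rule, the exceptions being ded81 on xylose and msm1 and tif34_2 on glucose. Over all 179 results for single loci, called or not, 152 kept direction and side of the threshold in those settings. In the starved sugar comparison aim10 also lost its call without starved xylose library B or C, gcd6 without starved glucose library B or starved xylose library B or C, msy1 without starved glucose library B and PHBOTO_005453 without starved glucose library A. All 8 reversals were of values that were not called. With a library left out, PHBOTO_000678 on glucose ran from -0.19 to 0.040, positive without starved glucose library B, and cdc33_2 on glucose from -0.52 to 0.24, positive without exponential or starved glucose library B. On xylose gcn3 ran from -0.13 to 0.034, positive without exponential xylose library A or starved xylose library B. For hbs1 on xylose the range was -0.023 to 0.093, negative without exponential or starved xylose library A, and it was -0.031 under upper quartile scaling. The cause of these changes was not tested. No scaling moved the median of all genes by as much as 0.1. The smallest library held 15130232 counts, and the 14 loci under the count filter were not tested.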
